A study of Mus musculus with 6 samples.

Results

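The cytosolic ribosomal protein genes of the mouse retina were examined across wild-type (WT) and Wfs1-KO animals. They were taken from the count table by gene symbol: Rpl or Rps followed by a number, with or without a closing a, l or x, together with Rplp0, Rplp1, Rplp2 and Rpsa, and without symbols ending in -ps. This rule gave 83 of the 55376 genes in the table, 32 of the small subunit and 51 of the large subunit. A filter on low counts kept 80 of the 83 among 18547 genes tested. The other 3 were Rpl10l, Rpl39l and Rpl3l.

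Whole retinas came from 3 WT and 3 Wfs1-KO mice at postnatal day 240, about 8 months of age. Wfs1 encodes wolframin, a membrane protein of the endoplasmic reticulum whose loss in people causes Wolfram syndrome. The mutants carried the targeted Wfs1 exon8del allele in every tissue, so the retina was not the only organ affected. All animals share the strain C57x129 in the sample labels, while the methods name a C57BL/6 J background. The labels name Trizol for the extraction, while the methods name a column kit. Each library is 1 mouse.

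The ribosome has a small subunit that reads the mRNA and a large subunit that joins amino acids. Each is built from ribosomal RNA and one copy of most ribosomal proteins, so cells make these proteins in near-equal numbers. Many of the mRNAs begin with a C followed by a run of pyrimidines, the 5′ terminal oligopyrimidine (TOP) motif, through which the kinase complex mTORC1 and the RNA-binding protein LARP1 set their translation and stability. Their levels are therefore often read as a group.

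The start sites are shown first because the TOP motif is what these genes are best known to share. RefSeq windows on GRCm38.p6 were found for 61 of the 83 genes, 73 windows in all. Each sequence below runs from 40 bases before the annotated start to 25 bases from it, and the capitals mark the unbroken run of C or T that begins at the start base. The first 6 are ribosomal protein genes of both subunits with the motif. The last 2 are the start sites of Rpl34, the 1 member called between genotypes, and only with 1 mutant library left out. Just before the annotated inner start of Rpl34 the letters are also an unbroken run of C or T, left in lower case.
Rps6 (chr4:86857343-86857407, minus strand): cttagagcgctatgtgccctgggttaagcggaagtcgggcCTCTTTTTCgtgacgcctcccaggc
Rps18 (chr17:33955641-33955705, minus strand): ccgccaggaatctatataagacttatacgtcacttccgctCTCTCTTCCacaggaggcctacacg
Rps27 (chr3:90213624-90213688, minus strand): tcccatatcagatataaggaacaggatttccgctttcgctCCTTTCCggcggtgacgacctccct
Rpl15 (chr14:18270962-18271026, minus strand): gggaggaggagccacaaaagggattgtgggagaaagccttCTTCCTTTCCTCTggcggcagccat
Rpl38 (chr11:114668540-114668604, plus strand): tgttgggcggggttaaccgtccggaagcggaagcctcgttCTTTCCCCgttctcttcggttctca
Rplp2 (chr7:141447611-141447675, plus strand): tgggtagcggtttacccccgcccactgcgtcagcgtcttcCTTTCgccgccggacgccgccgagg
Rpl34, inner start (chr3:130730313-130730377, minus strand): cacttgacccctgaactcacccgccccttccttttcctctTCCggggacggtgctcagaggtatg
Rpl34, outer start (chr3:130730374-130730438, minus strand): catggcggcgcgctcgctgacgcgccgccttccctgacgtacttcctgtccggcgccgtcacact

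A start base C followed by at least 4 more pyrimidines was present in 14 of the 73 windows (19.2%), against 2.51% of all 32851 windows in the RefSeq table. Annotated starts can lie a few bases from the true ones, so this share depends on the annotation. Among letters searched on both strands from 250 bases before to 50 after the start, CCGGAAG, the core of ETS factor sites, was in 35.6% of the members' windows and 8.86% of all windows. AAGATGG, the core of YY1 sites, was in 15.1% and 6.34%, and GGGCGG, the core of SP1 sites, in 57.5% and 35.7%. TATAAA was in 9.59% of the members' windows and 13.6% of all, and CACGTG, the E-box of MYC, in 11.0% and 7.15%. The median GC content was 57.7% in the members' windows and 52.7% in all windows. These matches describe letters, not bound sites, and the motifs can overlap.

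Total counts ranged from 17916885 in WT replicate 3 to 101334381 in Wfs1-KO replicate 1. Wfs1 was at 61.4 to 69.9 CPM (counts relative to the TMM-adjusted library total) in WT and at 9.63, 0.900 and 11.5 CPM in mutant replicates 1, 2 and 3, so it was lower in every mutant library. Wfs1-KO replicate 2 stood apart: its mean Pearson correlation with the other libraries across genes was 0.918, against 0.962 to 0.971 for the other 5. Genotype differences are therefore given with and without it. Rod genes led the marker lists in every library (8 genes, summed level 51263 to 73580 CPM). Their sum was lowest in Wfs1-KO replicate 2, although 2 of the 8 genes were highest of the 6 libraries there. In that library, the red blood cell list (5 of 5 genes highest of the 6 libraries) summed to 480 CPM, against 12.3 to 41.2 in WT. The microglia and macrophage list (9 of 10 highest) summed to 336 CPM, against 52.9 to 57.8 in WT, and the astrocyte and reactive glia list (5 of 5 highest) to 585 CPM, against 150 to 183. The cornea, iris and ciliary epithelium list (4 of 5 highest) summed to 47.2 CPM, against 2.06 to 3.69, and the pigment epithelium list (6 of 9 highest) to 1054 CPM, against 620 to 702. The other 10 lists lay between 0.716 (Müller glia) and 4.74 (neutrophils) times the WT mean, and 1 neutrophil marker was at 0 in every library. The part of these cells in the results was not tested. In whole tissue, more or fewer cells of a type and more or less RNA per cell cannot be told apart.

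Ribosomal protein mRNAs took up more than 2 times the usual share of the library in 1 mutant retina and no more than the usual share in the other 2. Their 83 genes held 1.69%, 1.32% and 1.27% of assigned counts in WT replicates 1, 2 and 3. In Wfs1-KO replicates 1, 2 and 3 they held 1.29%, 3.58% and 1.22%. Replicate 2 was thus 2.52 times the WT mean, while mutant replicate 3 was the lowest of all and mutant replicate 1 lay inside the WT range. The group means were 1.42% ± 0.231 in WT and 2.03% ± 1.35 in Wfs1-KO (SD, n = 3 each), a ratio of 1.42, and the ranges overlapped. Without Wfs1-KO replicate 2 the mutant mean was 1.25% and the ratio 0.879. The direction of the group difference was therefore set by 1 library.

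**Figure D1:**
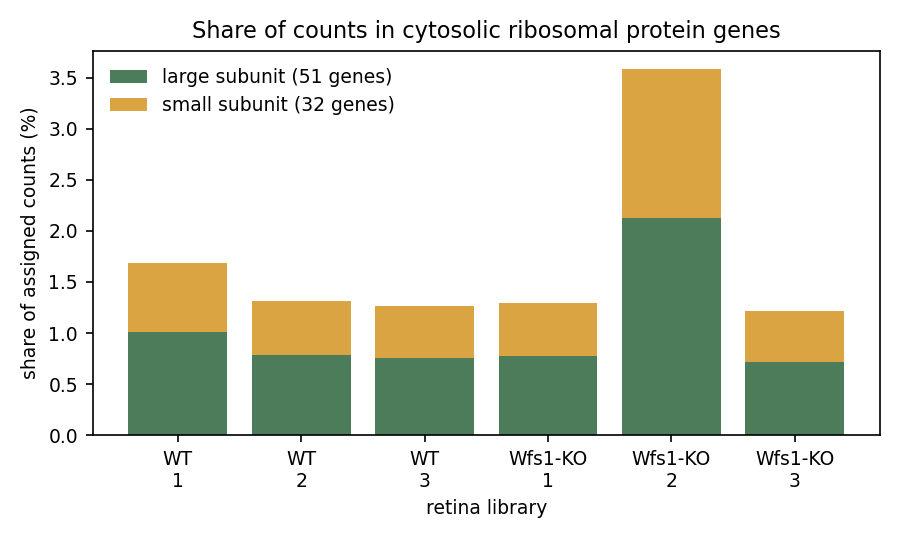
Share of assigned counts (%) in the cytosolic ribosomal protein genes of each retina library, with the large subunit (lower bar) and the small subunit (upper bar) stacked. Wfs1-KO replicate 2 reached 3.58%, while the other 5 libraries lay between 1.22% and 1.69%.

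Both subunits moved together. Small-subunit genes held 0.680%, 0.532% and 0.510% of counts in WT and 0.516%, 1.46% and 0.494% in Wfs1-KO, and large-subunit genes held 1.01%, 0.784% and 0.757% in WT and 0.774%, 2.13% and 0.721% in Wfs1-KO. The ratio of small-subunit to large-subunit counts was 0.673, 0.678 and 0.674 in WT and 0.666, 0.684 and 0.685 in Wfs1-KO. That ratio was 0.675 ± 0.00270 in WT and 0.678 ± 0.0109 in Wfs1-KO (SD, n = 3 each), with overlapping ranges. The pseudogenes named -ps, processed copies scattered over the genome, held 0.00422% to 0.00558% of counts in WT and 0.00583%, 0.0185% and 0.00981% in Wfs1-KO. Their mutant values were all above the WT values, that of replicate 1 only just. With the copies Rpl34-ps1 and Rpl3-ps1, described further on, left out, they held 0.00383% to 0.00509% in WT and 0.00413%, 0.0129% and 0.00425% in Wfs1-KO, so that mutant replicates 1 and 3 lay inside the WT range. The share of mitochondrially encoded genes, a separate measure of library make-up, was 1.92% to 2.59% in WT and 1.80% to 2.17% in Wfs1-KO.

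Gene by gene, each library was set against the mean of the 3 WT libraries as log2 CPM. The median over the 80 tested genes was 0.24, -0.10 and -0.13 in WT replicates 1, 2 and 3, and -0.17, 1.39 and -0.23 in Wfs1-KO replicates 1, 2 and 3. The median over all tested genes stayed between 0.0017 and 0.024 in the 6 libraries. WT replicate 1 was above the WT mean in 78 of the 80 genes, mutant replicate 2 in 80, and the other 4 libraries in 3 to 19. Wfs1-KO replicate 2 was the highest of the 6 libraries for all 80 tested genes, against 38.4% of all tested genes. Once it was left out, WT replicate 1 was the highest of the remaining 5 for 72 of 80, against 27.1% of all genes. The 3 WT values of a gene average 0 on this scale, so a high WT replicate 1 by itself lowers the values of the other libraries. Most of the family thus stood high together in Wfs1-KO replicate 2 and, by less, in WT replicate 1.

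**Figure D2:**
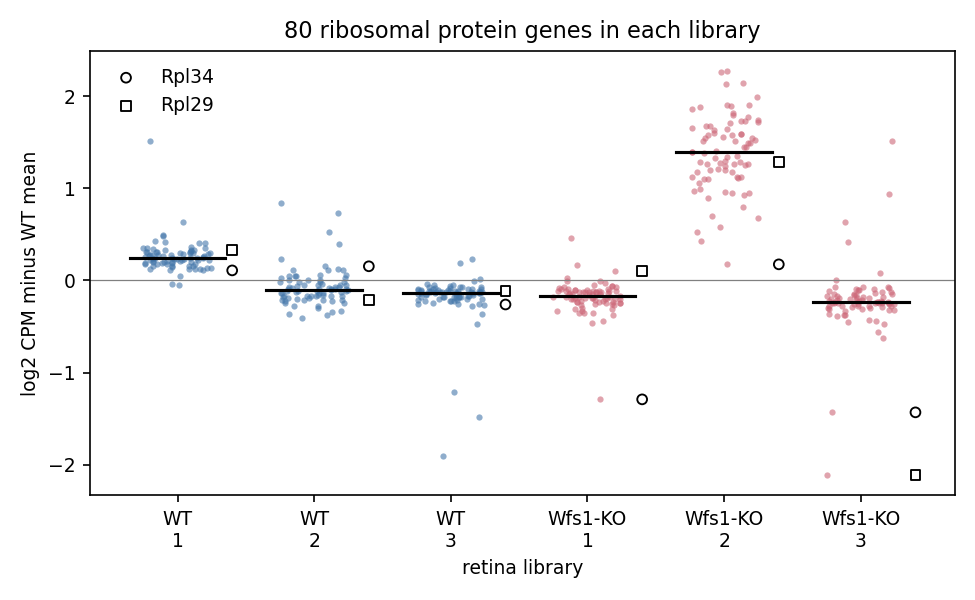
Log2 CPM of the 80 tested ribosomal protein genes minus the WT mean (y axis) in each retina library (x axis), 1 point per gene, with the median as a black line and Rpl34 (circle) and Rpl29 (square) marked beside each column. The medians of 5 libraries lay between -0.23 and 0.24, and that of Wfs1-KO replicate 2 at 1.39.

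The rise in Wfs1-KO replicate 2 was uneven. Its interquartile range over the 80 genes was 0.54 on the log2 scale, against 0.09 to 0.17 in the other 5 libraries. The ratio of its CPM to the WT mean ran from 1.12 for Rpl34 and 1.33 for Rpl23a to 4.39 for Rplp1 among genes above 1 CPM in WT. Shorter genes were further above WT in this library: the 40 genes below the median exon length had a median of 1.53 and the other 40 a median of 1.28. Spearman's rho of this difference with exon length was -0.324 over the 80 genes and -0.383 over all tested genes, which share the library and are not replicates. In WT replicate 1, the other library with a high share, these were -0.239 and -0.405. In the remaining 4 libraries, set against a WT mean that includes WT replicate 1, rho over all genes was between 0.146 and 0.264. The 14 tested genes with the TOP letters had a median of 1.5 in Wfs1-KO replicate 2 and the 44 other tested genes with a window 1.36. In mutant replicates 1 and 3 these medians were -0.20 and -0.18, and -0.24 and -0.24. The groups also differed in median exon length, 912 and 1080 bases. The 14 include Rpl32l and Rps10, both below 1 CPM in WT. The 44 include pyrimidine runs that begin with T, such as that of Rpl27a (16 bases). The part of RNA quality or length selection in these patterns was not tested.

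The comparison of Wfs1-KO with WT asked which transcripts differ in the retina at an age before its overt degeneration. No ribosomal protein gene passed on the 6 retinas: 0 of 80 had a Benjamini-Hochberg adjusted p under 0.05 in the quasi-likelihood test of edgeR, against 0.0108% of all genes (2 genes), and 0 of 80 had an unadjusted p under 0.05, against 2.81% of all genes. DESeq2 called 0 of 80, against 0.282% of all genes, and 1, Rplp1, had an unadjusted p under 0.05 there, with a higher level in Wfs1-KO. The smallest adjusted p of a member in edgeR's test was 0.979. The median log2 fold change over the 80 genes was 0.50, against 0.02 over all genes, and 79 of 80 were above 0, against 52.8% of all genes. With an offset that removes each library's trend of counts with exon length, the median was 0.16. In none of the 80 were all mutants above all WT retinas (5.01% of all genes) or all below (3.94%).

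Without Wfs1-KO replicate 2 the sign turned. The median became -0.22, against -0.00038 over 19178 genes, and 76 of 80 were below 0, against 50.1% of all genes. A lower level with an unadjusted p under 0.05 was found in 9 of 80, against 2.39% of all genes, and a higher one in 0 of 80, against 2.80%. In 33 of 80 both mutants lay below every WT retina, against 11.0% of all genes, and in 0 of 80 above, against 11.4%. Rpl34 was the 1 gene called, 1 of 80 against 0.125% of all genes, and DESeq2 also called 1, against 0.490%. With WT replicate 1, the WT library highest in these genes, left out as well, the median shrank to -0.08 and 61 of 79 were below 0, against 50.1% of all genes. Rpl34 was again the 1 called, against 0.0854% of all genes. The 80 genes share each library's composition, so these counts are not 80 independent observations.

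**Figure D3:**
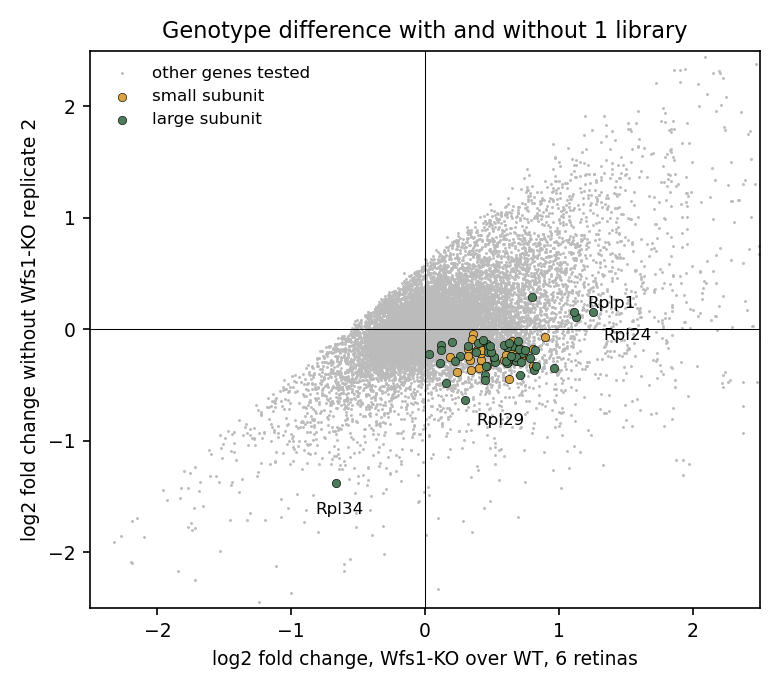
Log2 fold change of Wfs1-KO over WT on all 6 retinas (x axis) and without Wfs1-KO replicate 2 (y axis) for small-subunit genes, large-subunit genes and the other genes tested (grey, some outside the axes). Most ribosomal protein genes sit to the right of 0 and below 0. Rplp1, Rpl24, Rpl6l and Rpl32l are above 0 on both axes, and Rpl34 is below 0 on both (-0.67 and -1.38).

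By role, the medians followed the family. The P-stalk proteins Rplp0, Rplp1 and Rplp2, which recruit the translation factor GTPases, had a median of 0.78, and -0.26 without Wfs1-KO replicate 2. Rpl5 and Rpl11, which with 5S rRNA form a particle that also binds the p53 regulator MDM2, had 0.52 and -0.18. The 9 genes of the peptide exit tunnel and its rim had 0.52 and -0.25, and the 6 of the mRNA channel and decoding side 0.62 and -0.20. A list of 13 genes mutated in Diamond-Blackfan anaemia, an inherited failure of red cell production, which need not hold every such gene, had 0.49 and -0.21. All 32 small-subunit genes were above 0 on the 6 retinas (median 0.46) and below 0 without that library (median -0.22). The 48 tested large-subunit genes had medians of 0.56 and -0.21. None of these groups held a called gene on the 6 retinas, and without that library the 1 called was in the large subunit.

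Within the P-stalk, the members did not rise by the same amount. Rplp1 was at 412, 326 and 305 CPM in WT and at 389, 1528 and 365 CPM in Wfs1-KO. Its 2 other mutant values lay inside the WT range, and its log2 fold change was 1.13 (SE 0.55), or 0.11 (SE 0.15) without Wfs1-KO replicate 2. Rplp0, the scaffold of the stalk, was at 248, 187 and 200 CPM in WT and 194, 342 and 151 CPM in Wfs1-KO, with log2 fold changes of 0.11 (SE 0.31) and -0.30 (SE 0.17). Rplp2 was at 175, 117 and 124 CPM in WT and 119, 482 and 115 CPM in Wfs1-KO. In mutant replicate 2, therefore, the stalk's outer pair Rplp1 and Rplp2 were at 4.39 and 3.47 times the WT mean and Rplp0 at 1.62 times.

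The largest fold changes among well-detected genes had the same form. Rpl41, a very short basic protein between the subunits, was at 232, 128 and 152 CPM in WT and 144, 726 and 126 CPM in Wfs1-KO, a log2 fold change of 0.96 (SE 0.67), or -0.34 (SE 0.22) without mutant replicate 2. Rps14, a small-subunit protein on chromosome 18, was at 279, 200 and 221 CPM in WT and 234, 856 and 212 CPM in Wfs1-KO, 0.90 (SE 0.53) and -0.07 (SE 0.16). In both, mutant replicates 1 and 3 were inside or just under the WT range. At the other end, Rpl23a, a docking site for factors at the tunnel exit, was at 77.5, 57.5 and 59.3 CPM in WT and 57.8, 86.0 and 54.0 CPM in Wfs1-KO. Its log2 fold change was 0.03 (SE 0.24). Rpl7a and Rpl15, both of the large subunit, had log2 fold changes of 0.12 each (SE 0.23 and 0.25), and their values overlapped between genotypes. None of the genes in this paragraph passed the test.

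Rpl39, a small protein lining the exit tunnel, was the gene after Rpl34 with the smallest unadjusted p without Wfs1-KO replicate 2. It was at 87.0, 85.6 and 66.1 CPM in WT and 58.4, 209 and 58.1 CPM in Wfs1-KO. Both of the other mutants were thus below every WT value, with a log2 fold change of -0.46 (SE 0.15, adjusted p = 0.718 from edgeR's test), which did not pass. Rpl13a was at 17.1, 11.7 and 13.2 CPM in WT and 10.8, 26.6 and 9.38 CPM in Wfs1-KO, -0.48 (SE 0.20, adjusted p = 0.903). The other genes at an unadjusted p under 0.05 in that comparison were Rps27, Rpl21, Rpl32, Rps25, Rpl38 and Rpl30, with log2 fold changes from -0.41 to -0.33. Rpl29 had its widest gap within the mutants: it was at 181, 125 and 134 CPM in WT and at 156, 353 and 33.4 CPM in Wfs1-KO, where replicate 3 was far under all other libraries. Its log2 fold change was 0.30 (SE 0.69), and -0.64 (SE 0.46) without mutant replicate 2.

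Rpl34, a protein of the large subunit, was the 1 member below 0 on the 6 retinas as well as without Wfs1-KO replicate 2 (ENSMUSG00000062006.12, chr3:130726831-130730398 on the minus strand of mm10). It was at 118, 121 and 91.1 CPM in WT and at 44.6, 123 and 40.4 CPM in Wfs1-KO. Mutant replicates 1 and 3 were below every WT retina, and replicate 2, in which the other ribosomal protein genes rose most, was just above the WT range. On the 6 retinas the log2 fold change was -0.67 (SE 0.43, adjusted p = 0.979 from edgeR's test). Without Wfs1-KO replicate 2 it was -1.38 (SE 0.16, adjusted p = 0.00662 from edgeR's test), and with WT replicate 1 also left out -1.33 (SE 0.15, adjusted p = 0.0270).

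Read against its own family, Rpl34 was lower in all 3 mutants. It took 0.704%, 0.923% and 0.707% of the counts of the 83 genes in WT and 0.352%, 0.334% and 0.337% in Wfs1-KO, so the groups did not overlap and the mutants lay close together. In a fit with the family's total as library size its log2 fold change was -1.19 (SE 0.40, unadjusted p = 0.0153, adjusted p = 1.00 from edgeR's test), in which 0 of 80 members passed, against 0.0162% of all genes. It was the only member with an unadjusted p under 0.05 in that fit. This scale was chosen after the values had been seen.

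The opposite pattern was found at a copy of the gene. Rpl34-ps1 (ENSMUSG00000068396.9, chr6:71124610-71124963 on the plus strand of mm10) is annotated as a processed pseudogene of 354 bases without introns. It had 5, 4 and 4 counts in WT and 1323, 2150 and 610 counts in Wfs1-KO, or 0.0753, 0.0841 and 0.227 CPM against 12.8, 50.9 and 13.9 CPM. All mutants were far above all WT retinas, mutant replicate 2 most of all. The log2 fold change was 7.91 (SE 0.84, adjusted p = 0.0712 from edgeR's test) on the 6 retinas, which did not pass, and 7.0 (SE 0.33, adjusted p = 4.94e-06) without Wfs1-KO replicate 2. DESeq2 called it on the 6 retinas, with a log2 fold change of 7.85 (SE 0.73, adjusted p = 4.82e-23). These fitted values rest on a few WT counts.

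The copy covers the open reading frame of Rpl34 and is identical to it at 352 of 354 bases, with 185 bases as the longest identical run. The positions that tell the transcripts apart are T132C and C318G, counted from 1 at the first base of Rpl34-ps1, with the Rpl34 base first. The stretches around them are shown because reads that cover neither position match both loci equally well. Capitals mark the base that differs.
Rpl34, around T132C: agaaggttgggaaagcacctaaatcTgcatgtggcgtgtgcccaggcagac
Rpl34-ps1, around T132C: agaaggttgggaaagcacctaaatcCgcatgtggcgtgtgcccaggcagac
Rpl34, around C318G: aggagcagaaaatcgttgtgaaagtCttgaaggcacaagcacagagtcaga
Rpl34-ps1, around C318G: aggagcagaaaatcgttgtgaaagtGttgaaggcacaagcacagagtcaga

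How the counting treated reads that map to both loci is not given in the sources used here, so the split between the loci is uncertain. In WT, Rpl34-ps1 had 5, 4 and 4 counts beside 7821, 5779 and 1605 for Rpl34. Reads matching both loci were therefore not counted in full at each. If such reads were left uncounted, the sum of the loci lacks them too. Summed, the loci were at 118, 121 and 91.3 CPM in WT and 57.4, 174 and 54.3 CPM in Wfs1-KO. The pseudogene held 0.0639%, 0.0692% and 0.249% of that sum in WT and 22.4%, 29.2% and 25.5% in Wfs1-KO. The summed log2 fold change was -0.21 (SE 0.45, adjusted p = 0.979 from edgeR's test), and -0.99 (SE 0.16, adjusted p = 0.0609) without Wfs1-KO replicate 2. Adding the copy thus took away part of the difference, and the call, without turning its direction.

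**Figure D4:**
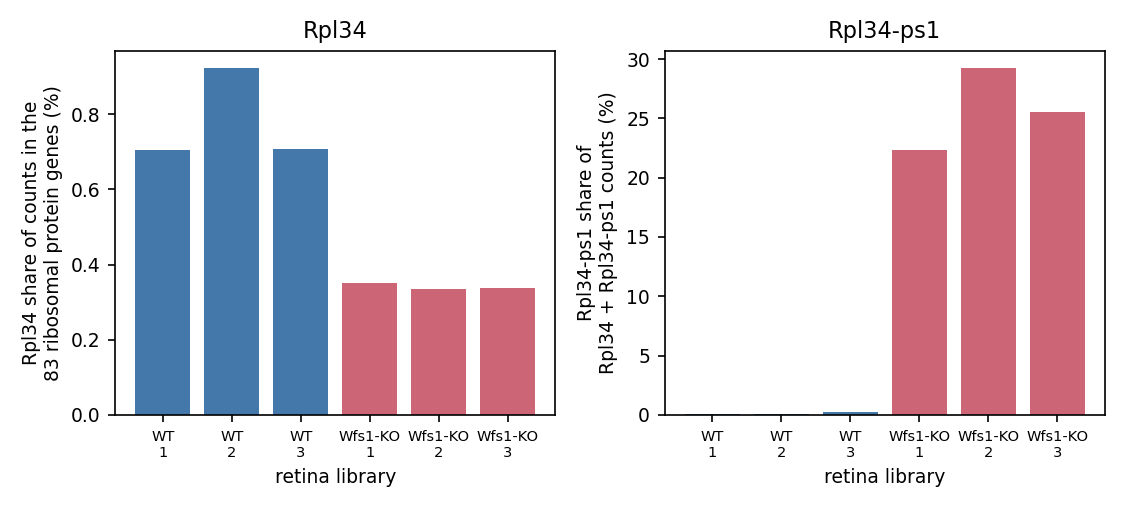
Left, counts of Rpl34 as a share (%) of the counts of the 83 ribosomal protein genes in each retina library. Right, counts of Rpl34-ps1 as a share (%) of Rpl34 plus Rpl34-ps1 counts. WT bars (blue) are at 0.704% or more on the left and at 0.249% or less on the right, and Wfs1-KO bars (red) at 0.352% or less and at 22.4% or more.

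A second copy showed 1 library of its own. Rpl3-ps1 (chrX:13202571-13203780, plus strand) is identical to Rpl3 at 1208 of 1210 bases. It was at 4.82, 3.51 and 3.75 CPM in WT and at 3.91, 6.84 and 40.9 CPM in Wfs1-KO, high in mutant replicate 3 alone. Rpl3, a core protein near the peptidyl transferase centre, was at 626, 497 and 504 CPM in WT and 496, 1006 and 396 CPM in Wfs1-KO, and replicate 3 was its lowest library. Of the 83 genes, 60 have copies named -ps in the table, 303 copies in all, so their counts can depend on how multiply mapping reads were treated.

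Levels per length show how the family is set in the WT retina. The highest by TMM-scaled CPM per kilobase of exon (RPKM) were Rplp1 at 697 ± 114, Rps15, which lies near the decoding centre, at 522 ± 138, Rps29 at 457 ± 67.0, Rpl3 at 402 ± 53.6 and Rpl8 at 383 ± 74.2 (SD, n = 3). Neighbours in that order had overlapping ranges. The lowest of the tested genes were Rpl13a at 12.4 ± 2.5, Rpl6l at 0.425 ± 0.261, Rpl32l at 0.425 ± 0.455, Rps10 at 0.394 ± 0.264 and Rpl24 at 0.389 ± 0.156, of which the last 4 overlapped each other. The order was stable: Spearman's rho of each library's RPKM with the WT mean was 0.976 or more in 5 libraries and 0.922 in Wfs1-KO replicate 2. The length is that of all annotated exons joined, so genes with long alternative exons, such as Rps15a (5395 bases, 31.3 RPKM), appear low.

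**Figure D5:**
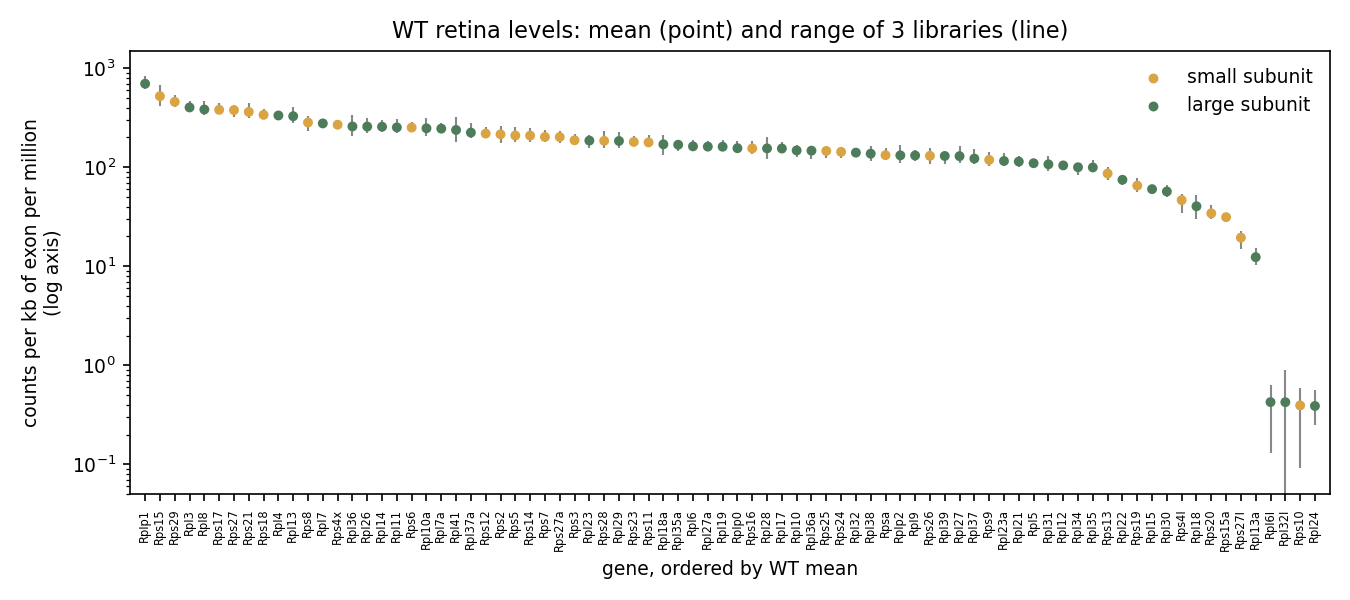
WT level of the 80 tested ribosomal protein genes as RPKM on a log axis, ordered by mean, with the mean as a point and the range of 3 WT libraries as a line (the line of Rpl32l reaches 0, which the log axis cannot show). Most genes lie between 12.4 and 697, and Rpl6l, Rpl32l, Rps10 and Rpl24 lie below 1.

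Rps10 and Rpl24 encode proteins that ribosomes of all cells carry, yet were below 1 CPM in every library except Wfs1-KO replicate 2 for Rpl24. Rpl24, which bridges the subunits, was at 0.241, 0.378 and 0.170 CPM in WT and 0.223, 1.35 and 0.409 CPM in Wfs1-KO. Rps10, at the mRNA entry side, was at 0.617, 0.715 and 0.114 CPM in WT and 0.301, 0.994 and 0.522 CPM in Wfs1-KO. In the annotation used here (GENCODE M21), 484 of the 677 exon bases of Rpl24 lie on the same strand in exons of Gm28037, and 475 of the 1223 of Rps10 in exons of Gm49804. Of Rpl13a, 621 of 1132 lie in exons of Gm45713 or Mir5121. Gm28037, Gm49804 and Gm45713 had 0 counts in every library. The part of reads left unassigned at overlapping genes was not tested, and the largest fold change of the family, 1.25 (SE 0.76) for Rpl24, is a ratio of such low values. In all, 5 members share exon bases with a gene on the same strand and 14 with one on the opposite strand. Strand use in counting is not given in the sources used here.

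Tissue-restricted copies were near 0. Rpl10l, which stands in for the X-linked Rpl10 in male germ cells, had 0 counts in all 6 libraries, which allows 0.0291 to 0.170 CPM per library (3 counts). Rpl39l, a testis copy of Rpl39, had 0, 2 and 0 counts in WT and 0, 2 and 0 in Wfs1-KO. Rpl3l, the muscle form of Rpl3, had 6, 4 and 12 counts in WT and 11, 14 and 5 in Wfs1-KO. The members Rpl6l, Rpl32l and Rps4l, 3 of the 83 that the symbol rule admits, are annotated as processed pseudogenes. Rpl6l and Rpl32l, 98.7% and 96.0% identical to Rpl6 and Rpl32 over the aligned part, stayed below 2 CPM, and their log2 fold changes of 1.12 (SE 0.77) and 0.80 (SE 0.90) rest on few counts. Rps4l, 79.9% identical to Rps4x, was well detected, at 50.3, 32.4 and 49.1 CPM in WT and 42.1, 83.4 and 43.3 CPM in Wfs1-KO. Rps27l, a copy of Rps27 known as a target of p53, was at 12.2, 13.0 and 8.63 CPM in WT and 8.56, 35.6 and 8.24 CPM in Wfs1-KO, with both mutants other than replicate 2 just under the WT range. Of 8 listed copies, the 5 that were tested had a median of 0.36 (log2 fold change), and -0.13 without that library. Their 8 partners had 0.43 and -0.24.

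Of 7 ribosomal protein genes whose symbols fall outside the rule, 5 were above 0 on the 6 retinas and 0 without Wfs1-KO replicate 2. The median of their log2 fold changes was 0.35, and -0.13 without that library, and none was called. Fau, which encodes RPS30 fused to a ubiquitin-like protein, was at 248, 167 and 172 CPM in WT and 186, 809 and 156 CPM in Wfs1-KO. Rack1, a scaffold on the head of the small subunit, was at 284, 215 and 225 CPM in WT and 232, 464 and 224 CPM in Wfs1-KO. Rps3a1 was at 231, 207 and 249 CPM in WT and 236, 603 and 179 CPM in Wfs1-KO. Rpl22l1 and Rpl7l1, copies of Rpl22 and Rpl7, had log2 fold changes of 0.43 (SE 0.39) and -0.11 (SE 0.18). Rpl36al had under 1 CPM in every library.

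The mitochondrial ribosomal proteins, which serve the separate ribosome of that organelle, had the following values in the same libraries. The median over their 77 tested genes was 0.26 (log2 fold change), with 0 called and 63 above 0, against 52.8% of all genes. It became -0.19 without Wfs1-KO replicate 2, with 73 of 77 below 0, against 50.1% of all genes. Under the exon-length offset on the 6 retinas the median was 0.05. In mutant replicates 1, 2 and 3 their median stood at -0.18, 0.91 and -0.18 relative to the WT mean on the log2 scale, beside -0.17, 1.39 and -0.23 for the cytosolic genes, and the difference was not tested. The 8 noncoding hosts of small nucleolar RNAs, several of which also begin with TOP letters in mammals, had 0.52 (0.14 under the exon-length offset) and -0.11, and in mutant replicate 2 their median stood 1.25 above WT. Snhg8, the host with the smallest p among the higher ones, was at 36.2, 27.7 and 27.2 CPM in WT and 27.4, 111 and 28.1 CPM in Wfs1-KO.

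The factors that make and use ribosomes were read from the same fits. The median log2 fold change was 0.15 over the 42 translation factors, and -0.10 without Wfs1-KO replicate 2, with Eif3j1, a subunit of the initiation factor eIF3, at 0.96 (SE 0.56) and Eif2s1, the alpha subunit of eIF2, at -0.44 (SE 0.20). The 49 biogenesis factors in the table, which build ribosomes in the nucleolus, had -0.06 and -0.17. All 49 were below 0 without that library, against 50.1% of all genes. Listed genes share each library's composition, so such counts are not independent observations. Of the biogenesis factors, Tcof1, which promotes rRNA transcription, was at 0.44 (SE 0.31) and Heatr1, a processome protein, at -0.52 (SE 0.31) on the 6 retinas. The 18 genes of mTORC1 and TOP regulation had -0.11 and -0.0025, with Larp1 at 0.40 (SE 0.25) and Mlst8, an mTORC1 subunit, at -0.24 (SE 0.19). The 15 ribosome quality control genes had -0.04 and -0.09, with Map3k20, a kinase that senses stalled ribosomes, at 0.35 (SE 0.25) and Usp21 at -0.29 (SE 0.20). The 18 tested p53 pathway genes had -0.16 and -0.11, with Bbc3 at 0.76 (SE 0.52) and Btg2 at -0.33 (SE 0.16). Among the mitochondrial set, Mrpl33 was at 1.15 (SE 0.62) and Mrpl49 at -0.29 (SE 0.17). In every one of these lists 0 genes were called by edgeR's test, on the 6 retinas and without Wfs1-KO replicate 2, and 0 by DESeq2. At an unadjusted p under 0.05 there were 0 on the 6 retinas, and without that library 0 to 7 a list, the 7 being mitochondrial ribosomal protein genes with lower levels (7 of 77, beside 2.39% of all genes).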

How the data were processed

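RNA-seq libraries of whole retina (3 WT mice, 3 Wfs1-KO mice) were made with an Illumina TruSeq kit. Per the submitters' processing notes, reads were trimmed with Trimmomatic 0.39, mapped to mm10 with STAR 2.5.3a and counted per gene with featureCounts 1.6.4; the methods give other versions, and strand and multi-mapping settings are not given in the sources used here. The authors deposited raw counts per gene with exon lengths. Columns were matched to samples by genotype letter and replicate number, and 2 further library columns, which correspond to none of the samples listed, were left out. From the counts, genotypes were compared over the whole table with edgeR 4.0.16 (R 4.3.3; TMM, filterByExpr, quasi-likelihood test, Benjamini-Hochberg adjustment, threshold 0.05). SE is the log2 fold change divided by the square root of F. CPM and RPKM use TMM-scaled library sizes, and per-library log2 CPM a prior count of 2. DESeq2 1.42.0, limma-voom (limma 3.58.1), other scalings, filters and leave-outs were alternatives, and the code was tested on simulated data.

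The genes and lists were chosen with earlier results of these data known. Named genes were the 5 highest and 5 lowest by fold change with and without Wfs1-KO replicate 2, the 5 highest and 5 lowest by WT level, those that failed the filter, and the 2 leading genes a direction of the other lists; the other members at an unadjusted p under 0.05, the pseudogenes and the overlapping genes were added after their values were seen. Replicates are separate mice. Replicate numbers do not mark pairs in the labels. Promoter windows are from RefSeq, positions and transcripts from GENCODE M21 (83 of 83 members matched). One gene of the list of ribosomal proteins outside the symbol rule is not reported here by itself.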

Additional observations from a re-analysis of the deposited data

How the results depend on the processing

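Wfs1-KO replicate 2 decided the sign of the family. Over the fits that leave out 1 library, the median log2 fold change ran from -0.22 to 0.77 for all ribosomal protein genes, from -0.22 to 0.71 for the small subunit and from -0.21 to 0.79 for the large subunit, and was below 0 only without that library. Called members numbered 0 to 1 over these fits, members at an unadjusted p under 0.05 0 to 9, and all called genes 0 to 24. With that library left out, DESeq2 gave medians of -0.22, -0.22 and -0.21 with 1, 11 and 94 genes in these 3 counts, and the exon-length offset gave -0.16, -0.16 and -0.16 with 1, 11 and 31. With WT replicate 1 left out as well they were -0.080, -0.093 and -0.069 with 1, 6 and 16. On all 6 libraries no alternative called a member. One member had an unadjusted p under 0.05 with DESeq2, the exon-length offset, no filter or the family total as library size. It was not the same gene in each of these fits. With DESeq2 it was Rplp1, higher in Wfs1-KO (log2 fold change 1.12, unadjusted p = 0.0441 from DESeq2's test). With the offset it was Rpl34, lower (-1.05, unadjusted p = 0.00183 from edgeR's test), and with the family total Rpl34 again. All called genes numbered 52 with DESeq2, 6 with the offset and 9 with no filter.

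The fits without 1 library spanned these ranges of medians: translation factors -0.10 to 0.26, quality control -0.11 to 0.038, snoRNA hosts -0.11 to 0.75 and mitochondrial ribosomal proteins -0.19 to 0.46. They spanned log2 fold changes of -0.22 to 0.17 (Rpl23a), -0.30 to 0.34 (Rplp0), -0.14 to 0.23 (Rpl7a), -0.18 to 0.27 (Rpl15), -0.071 to 1.22 (Rps14), -0.34 to 1.35 (Rpl41), -0.64 to 0.79 (Rpl29), -0.48 to 0.41 (Rpl13a), -0.46 to 0.74 (Rpl39), -0.44 to 0.96 (Rps27l), -0.044 to 0.53 (Rps4l), -0.0076 to 1.51 (Mrpl33), -0.14 to 1.19 (Snhg8), -0.0027 to 0.62 (Tcof1) and -0.057 to 1.31 (Eif3j1). In each of these named genes except Rpl23a, which was also below 0 without WT replicate 2 or 3, the value below 0 came without Wfs1-KO replicate 2. That library left out under DESeq2 gave medians of -0.10, -0.11 and -0.19 for translation factors, hosts and mitochondrial genes, and under the offset -0.10, -0.043 and -0.15. With WT replicate 1 also out, translation factors were at -0.070, mTORC1 and TOP regulators at 0.0045 and mitochondrial genes at -0.10. On 6 libraries the offset gave -0.020 for translation factors, -0.26 for Rpl23a, -0.14 for Rplp0, -0.15 for Rpl7a, -0.18 for Rpl29, -0.19 for Rpl13a and -0.047 for Rpl39, and a median of 0.16 for the family. No filter put Rpl23a at -0.013, and limma-voom put Rpl29 at -0.24 and Rpl13a at -0.032. With the family total as library size, Rpl23a was at -0.26, Rplp0 at -0.26, Rpl7a at -0.17, Rpl15 at -0.21, Rpl29 at -0.32, Rpl13a at -0.32, Rpl39 at -0.16, Rps27l at -0.039 and Rps4l at -0.013. The cause of each reversal was not tested.

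The replicate numbers pair no samples in the labels, and the correlations of same-numbered deviations were -0.234, -0.111 and 0.078. With the replicate block, 1 gene in all was called and 1 member had an unadjusted p under 0.05, Rpl29 was at -0.24 and Rpl13a at -0.0022, and the family median was 0.31.

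Values below 1 CPM (Rpl24, Rps10, Rpl6l, Rpl32l) rest on few counts. The family total as library size, the summed Rpl34 loci, and the fits without Wfs1-KO replicate 2 under DESeq2, under the offset or with WT replicate 1 out were chosen after seeing the data.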
